A study of Mus musculus with 32 samples.

Results

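The 9 genes described here encode hepatic enzymes of amino acid breakdown, namely Tat, Tdo2, Sds, Hpd, Hgd, Got1, Gpt, Gpt2 and Aass. They were chosen by symbol from the 20076 genes of the count table as amino acid catabolic enzymes described as fasting-induced. The choice was made with earlier results of these data known, and all 9 passed the filter on low counts. Their mRNA was measured in 3′ tag libraries from freeze-clamped liver of male C57BL/6J mice. MCAD-KO mice lack medium-chain acyl-CoA dehydrogenase (gene Acadm, a constitutive knockout) and were compared with littermate wild-type (WT) mice, so both genotypes share the strain background. Each genotype received a low-fat (LF) or a palm-oil-based high-fat (HF) semi-synthetic diet for 6 weeks and was then killed in the fed state or after 16 h without food, which gave 8 groups of 4 mice labelled with ages of 7.5 to 16 and no unit.

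Of the 32 mice, 30 were used. MCAD-KO HF fasted replicate 4 was left out because its summed hepatocyte markers reached 788 CPM (counts scaled to a common library total, with TMM factors) against 40243 to 72096 CPM in the 30 mice, while its heart markers reached 38457 CPM against 0.369 to 65.1 CPM. WT LF fed replicate 2 was left out as well, with hepatocyte markers at 38899 CPM, below all 30 mice, and stellate cell markers at 1188 CPM against 377 to 629.5 CPM. The 32 libraries held 2031053 to 4292200 counts. Acadm had 26 to 94 counts in the 16 MCAD-KO mice and 566 to 2752 in the 16 WT mice, with no overlap. Acinar pancreas markers were at 18490 CPM in WT HF fasted replicate 2 and 2695 CPM in MCAD-KO HF fed replicate 1 and at most 61.7 CPM in the other mice used, so results were also computed without both mice. In bulk liver, fewer hepatocytes and less mRNA per hepatocyte cannot be told apart.

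During fasting the liver takes up amino acids released from muscle, removes their nitrogen and passes the carbon skeletons to gluconeogenesis, ketogenesis or oxidation. Glucagon (through cAMP) and glucocorticoids are the classical hormonal inducers of several of these enzymes, with Tat and Tdo2 as textbook glucocorticoid targets, and dietary protein and carbohydrate change them as well. The 9 enzymes cover the entry steps of tyrosine (Tat), tryptophan (Tdo2), serine (Sds) and lysine (Aass) breakdown, later steps of tyrosine breakdown (Hpd, Hgd), and the aminotransferases that exchange nitrogen with aspartate (Got1) and alanine (Gpt, Gpt2).

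Promoter sequence, from 250 bases before to 50 bases after the annotated start, was taken from RefSeq (GRCm38.p6) and matched 7 of the 9 genes. Shown are the 4 genes whose response to fasting differed between the diets with the greatest stability, so that their upstream sequence can be read beside their values. Capitals mark matches to the cAMP response element half-site TGACG, which reads CGTCA on the other strand, and to the forkhead motif TGTTTGC, which reads GCAAACA on the other strand, both searched on both strands, and the matches do not overlap. The regions are chr3:81975679-81975978 (minus strand) for Tdo2, chr5:123182674-123182973 (minus strand) for Hpd, chr8:85492326-85492625 (plus strand) for Gpt2 and chr6:23132937-23133236 (minus strand) for Aass.
Tdo2: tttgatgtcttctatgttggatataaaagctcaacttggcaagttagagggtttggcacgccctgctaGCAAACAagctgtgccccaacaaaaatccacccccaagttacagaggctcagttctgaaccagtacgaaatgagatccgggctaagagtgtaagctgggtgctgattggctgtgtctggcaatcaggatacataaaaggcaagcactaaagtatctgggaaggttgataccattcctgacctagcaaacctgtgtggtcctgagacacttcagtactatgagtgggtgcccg
Hpd: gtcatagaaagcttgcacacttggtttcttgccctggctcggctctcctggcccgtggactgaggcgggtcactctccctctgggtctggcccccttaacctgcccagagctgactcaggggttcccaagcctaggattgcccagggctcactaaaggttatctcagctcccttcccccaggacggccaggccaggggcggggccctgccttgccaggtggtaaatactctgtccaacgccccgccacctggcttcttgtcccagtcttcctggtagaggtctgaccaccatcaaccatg
Gpt2: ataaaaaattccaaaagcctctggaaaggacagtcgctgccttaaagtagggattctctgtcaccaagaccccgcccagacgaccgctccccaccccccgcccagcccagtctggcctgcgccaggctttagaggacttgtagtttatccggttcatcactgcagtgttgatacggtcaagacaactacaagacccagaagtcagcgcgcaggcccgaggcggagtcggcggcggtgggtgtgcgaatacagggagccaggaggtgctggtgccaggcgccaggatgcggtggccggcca
Aass: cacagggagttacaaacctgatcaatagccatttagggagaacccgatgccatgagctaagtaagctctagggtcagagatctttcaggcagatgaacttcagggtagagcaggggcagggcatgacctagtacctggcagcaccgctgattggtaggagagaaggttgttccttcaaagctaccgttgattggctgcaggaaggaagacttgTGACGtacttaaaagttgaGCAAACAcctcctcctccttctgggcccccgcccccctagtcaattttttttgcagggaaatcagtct

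TGACG was present in the promoter of 1 of the 7 genes, Aass, where it began 37 bases before the start, and in 20.8% of all 32851 promoters. The motif TGTTTGC was matched on its complementary strand in 2 of the 7, at 182 bases before the start of Tdo2 and 18 bases before that of Aass, and in 5.07% of all promoters. The forkhead variant TGTTTAC, whose reverse complement is GTAAACA, was present in none of the 7 and in 3.65% of all promoters. The glucocorticoid half-site TGTTCT, whose reverse complement is AGAACA, was likewise in none of the 7 and in 19.0% of all promoters. These are matches of letters in a short window and do not show binding.

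Fasting raised 5 of the 9 mRNAs when averaged over diets and genotypes, namely Tdo2, Hpd, Gpt, Gpt2 and Aass, and lowered none. Of all 11566 genes tested, 18.9% changed with fasting, 9.77% upwards (edgeR quasi-likelihood test, Benjamini-Hochberg adjusted p under 0.05, as for all calls). Aass rose most, 2.2-fold (log2 fold change 1.14, SE 0.14, adjusted p = 2.7e-07), followed by Gpt2 (1.96-fold, log2 fold change 0.97, SE 0.10, adjusted p = 6.04e-10). Tat, Sds, Hgd and Got1 did not pass the test on average, with log2 fold changes of 0.17, 0.31, 0.14 and 0.36. The median log2 fold change of the 9 was 0.359 against -0.00219 over all genes. Because the 9 were chosen as fasting-induced with earlier results of these data known, shares over all genes here and below describe them. They are no independent test of the choice.

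The average concealed a difference between the diets. On the LF diet, fasting raised the mRNA of most of these enzymes in both genotypes, whereas on the HF diet no member passed the test. In WT mice on LF, 5 of 9 rose (Tdo2, Hpd, Gpt, Gpt2, Aass) against 3.75% of all genes rising and 7.54% changing. In MCAD-KO mice on LF, the same 5 and Hgd rose, 6 of 9, against 7.26% of all genes rising and 13.8% changing. On HF, 0 of 9 passed in WT mice (0.424% of all genes), with Hpd alone at an unadjusted p under 0.05, and 0 of 9 in MCAD-KO mice (0.527% of all genes), with Gpt2 and Aass at an unadjusted p under 0.05. DESeq2 and limma voom likewise called 0 of 9 in both HF comparisons. Tdo2, Hpd, Gpt2 and Aass passed on LF in both genotypes in each fit that left out a single mouse. Gpt lost its call in WT mice without WT LF fed replicate 1 and in MCAD-KO mice without MCAD-KO LF fed replicate 1 or 3, Hgd lost its call in MCAD-KO mice without MCAD-KO LF fed replicate 1, 3 or 4 or MCAD-KO LF fasted replicate 2 or 4, and with all 32 mice 1 enzyme passed in each genotype (Aass in WT, Gpt2 in MCAD-KO).

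**Figure D1:**
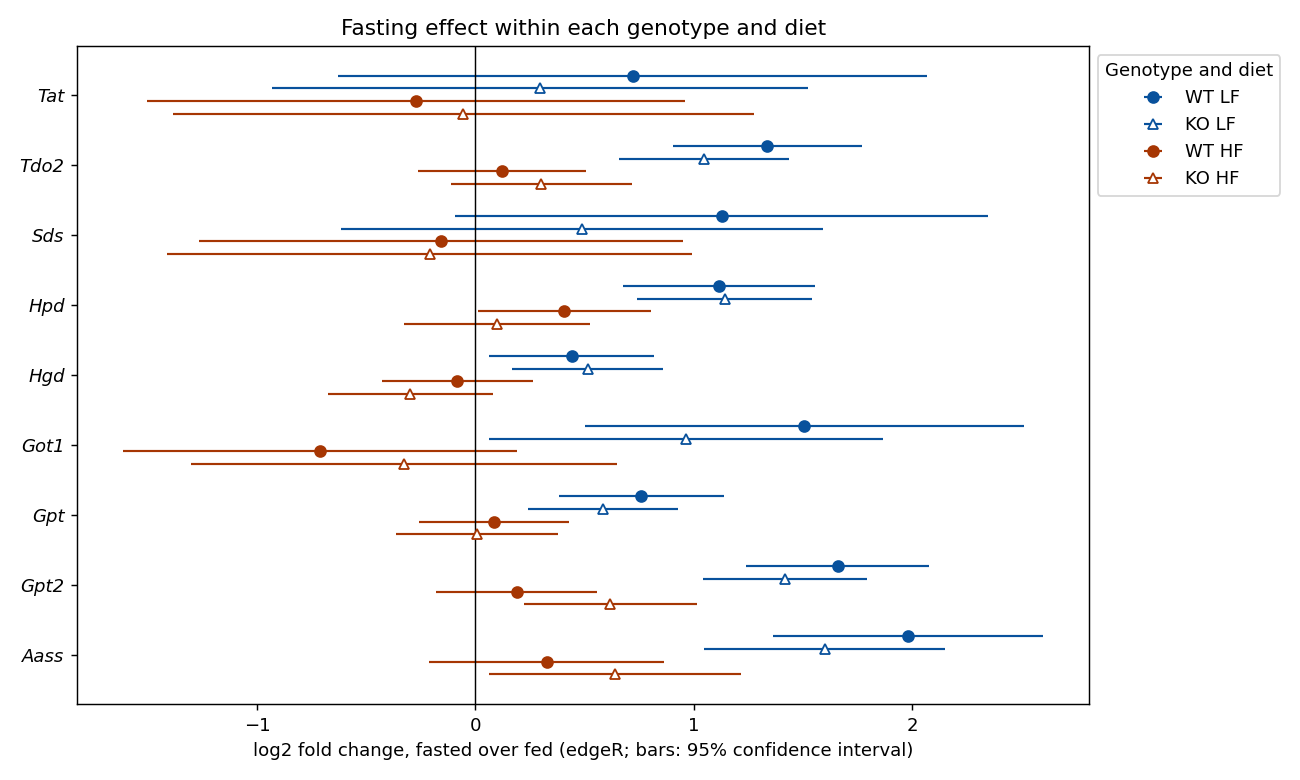
Log2 fold change of fasted over fed mice for each enzyme in WT and MCAD-KO mice on the LF and HF diets, with 95% confidence intervals from edgeR. The LF values lie to the right of the HF values for all 9 genes in both genotypes, and for Tat and Sds the intervals include 0 in all 4 comparisons.

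The fasting response differed between diets for 7 of the 9 genes, all with a lower log2 fold change on HF (Tdo2, Hpd, Hgd, Got1, Gpt, Gpt2 and Aass). On HF itself, fasting gave a log2 fold change below 0 for 4 of 9 members in WT and 4 of 9 in MCAD-KO mice. In WT mice on HF it was -0.71 for Got1 (95% confidence interval -1.61 to 0.19) and -0.08 for Hgd (-0.43 to 0.26). Over all genes, 2.46% differed between diets and 1.2% differed with a lower log2 fold change on HF. The median of this difference (log2 fold change on HF minus that on LF) was -0.981 for the 9 members and -0.00857 over all genes. It ranged from -0.63 for Gpt to -1.75 for Got1 among the 7, while Tat (-0.67, 95% confidence interval -1.96 to 0.61, adjusted p = 0.737) and Sds (-0.99, interval -2.15 to 0.17, adjusted p = 0.484) did not pass. Tdo2, Hpd, Gpt2 and Aass passed in each fit that left out 1 of the 30 mice. Hgd, Got1 and Gpt each lost the call in some of these fits, and the count was 4 without any 1 of WT LF fed replicates 1 and 3, MCAD-KO LF fed replicate 1, WT LF fasted replicates 1 and 2, MCAD-KO LF fasted replicate 4, MCAD-KO HF fed replicate 4, WT HF fasted replicates 2 and 4, or MCAD-KO HF fasted replicate 3. The count was 8 without MCAD-KO LF fasted replicate 1, as Sds then passed (adjusted p = 0.0383).

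The call also depended on the libraries kept. With WT LF fed replicate 2 kept and the heart-like library alone left out, 6 of 9 passed, Gpt being lost (adjusted p = 0.0615), and with all 32 mice none passed, with differences of -0.81 to -1.57. Without both mice carrying pancreas RNA, and separately with sequencing lane as a term, Tdo2, Hpd, Gpt2 and Aass passed. Fits within a lane pooled the genotypes, with groups by diet and feeding alone. Within lane 7, which held no WT LF fed mouse, 0 of 9 passed, and within lane 8 Hpd and Aass passed. The differences were negative for all 9 genes in each lane, from -0.36 to -1.93 in lane 7 and from -0.74 to -1.59 in lane 8.

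**Figure D2:**
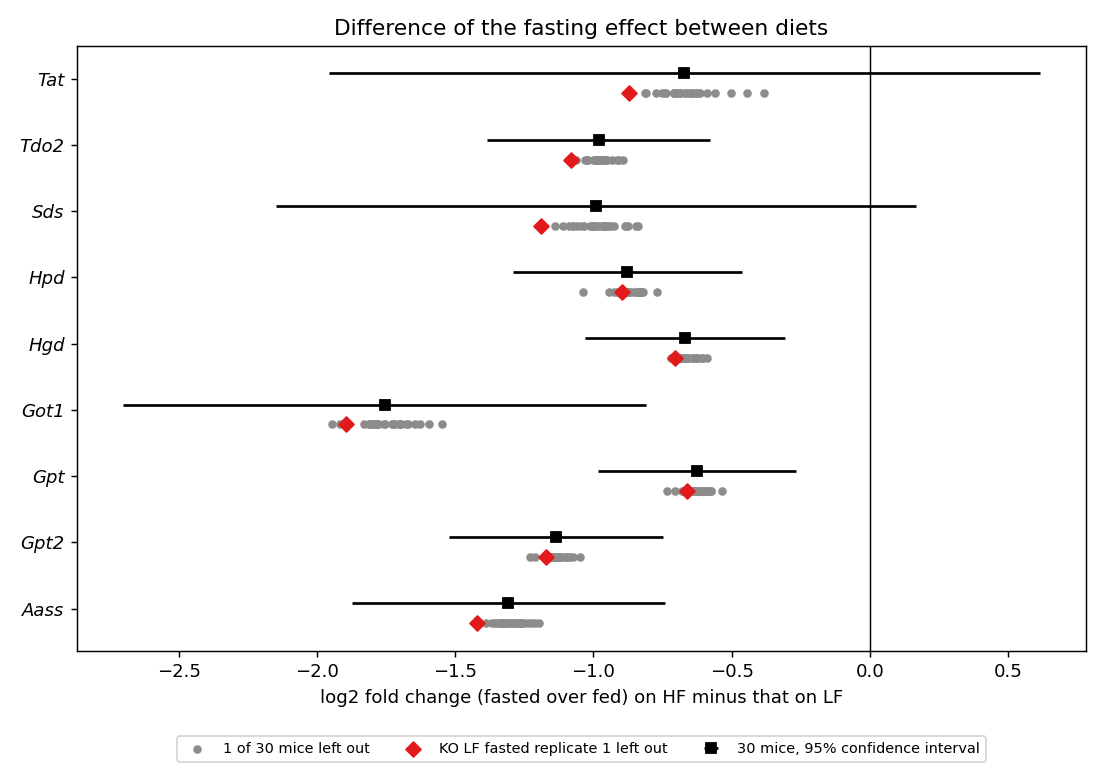
Difference of the fasting effect between diets for each enzyme (log2 fold change on HF minus that on LF), with the 95% confidence interval in 30 mice and, below it, the 30 values obtained by omitting a single mouse (red diamond, MCAD-KO LF fasted replicate 1 omitted). All point estimates lie below 0, and the interval includes 0 for Tat and Sds.

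Tdo2 (tryptophan 2,3-dioxygenase, the first and rate-limiting step of tryptophan breakdown in liver) was at 1410 to 1700 CPM in the 7 LF fed mice, with a median of 1590 CPM. The 8 LF fasted mice were at 1909 to 4845 CPM, median 3680 CPM, and so lay above every LF fed mouse. In the 8 HF fed mice it was at 1375 to 2524 CPM (median 1787), and in the 7 HF fasted mice at 1769 to 2308 CPM (median 2154). Fasted and fed mice were thus separate on LF and overlapped on HF. Fasting raised Tdo2 2.53-fold in WT (log2 fold change 1.34, SE 0.21, adjusted p = 3.83e-05) and 2.07-fold in MCAD-KO mice (1.05, SE 0.19, adjusted p = 0.00015) on LF. On HF the changes were 1.09-fold (95% confidence interval of the log2 fold change -0.26 to 0.51) and 1.23-fold (-0.11 to 0.72). The difference between diets was -0.98 (SE 0.20, adjusted p = 0.00415).

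Hpd and Hgd act one after the other in tyrosine breakdown, Hpd forming homogentisate and Hgd opening its ring. Hpd was at 529 to 699 CPM (median 648) in LF fed and 954 to 1655 CPM (median 1357) in LF fasted mice, again without overlap. On HF it was at 633 to 1089.6 CPM (median 661) in fed and 683 to 1461 CPM (median 800.2) in fasted mice. The highest HF fasted value belonged to WT replicate 1, and the other 6 HF fasted mice were at 875 CPM or below. The rise on LF was 2.17-fold in WT (log2 fold change 1.12, SE 0.22, adjusted p = 0.000536) and 2.21-fold in MCAD-KO mice (1.14, SE 0.20, adjusted p = 7.17e-05), and the difference between diets was -0.88 (SE 0.20, adjusted p = 0.0131). Hgd moved less, from 342 to 498 CPM (median 439) in LF fed to 466 to 751 CPM (median 586) in LF fasted mice, with overlap. It passed the test on LF in MCAD-KO mice (1.43-fold, log2 fold change 0.51, SE 0.17, adjusted p = 0.0386) and not in WT mice (1.36-fold, 0.44, SE 0.19, adjusted p = 0.163). All 7 HF fasted mice, at 312 to 460.3 CPM, lay below all 8 LF fasted mice for Hgd. The Hpd locus overlaps Psmd9 on the opposite strand, and the strand setting of the counting is not given in the sources used here.

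Gpt2 and Gpt are the mitochondrial and the cytosolic alanine aminotransferase, which convert alanine to pyruvate. Gpt2 was at 171 to 276 CPM (median 213) in LF fed mice and 384 to 886 CPM (median 627) in LF fasted mice. These groups did not overlap in the mice used. The left-out WT LF fed replicate 2 was at 420 CPM, above the lowest LF fasted mouse. On HF, Gpt2 was at 195 to 325 CPM (median 244) in fed and 284 to 357 CPM (median 328) in fasted mice. There, 4 of 7 fasted mice exceeded all fed mice. All 7 HF fasted mice were below all 8 LF fasted mice. The fasting response of Gpt2 on LF was 3.16-fold in WT (log2 fold change 1.66, SE 0.21, adjusted p = 8.3e-07) and 2.68-fold in MCAD-KO mice (1.42, SE 0.19, adjusted p = 8.4e-07). On HF it was 1.14-fold in WT mice (interval of the log2 fold change -0.18 to 0.56) and 1.53-fold in MCAD-KO mice (0.22 to 1.01, adjusted p = 0.199). The difference between diets, -1.14 (SE 0.19, adjusted p = 0.000456), had the smallest p of the 9. Gpt ranged from 86.3 to 140.5 CPM (median 109) in LF fed and from 134 to 201 CPM (median 177) in LF fasted mice, so that 7 of 8 fasted mice lay above all fed mice. It rose 1.69-fold in WT (adjusted p = 0.00623) and 1.5-fold in MCAD-KO mice (adjusted p = 0.0163) on LF, with 1.06-fold and 1.01-fold on HF.

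Aass, the bifunctional enzyme that starts lysine breakdown in mitochondria, was at 225 to 299.6 CPM (median 289) in LF fed and 399.8 to 1532 CPM (median 1009.8) in LF fasted mice. The lowest LF fasted mouse was above the highest LF fed mouse. On HF it was at 240.1 to 339.6 CPM (median 310.3) in fed and 288 to 548 CPM (median 432) in fasted mice, and 5 of 7 fasted mice exceeded all fed mice. The rise on LF was 3.95-fold in WT (log2 fold change 1.98, SE 0.30, adjusted p = 5.35e-05) and 3.03-fold in MCAD-KO mice (1.60, SE 0.27, adjusted p = 9.92e-05). On HF the changes were 1.25-fold (interval of the log2 fold change -0.21 to 0.87) and 1.56-fold (0.06 to 1.22, adjusted p = 0.57). The diets differed by -1.31 (SE 0.28, adjusted p = 0.00847).

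Tat (tyrosine aminotransferase), Sds (serine dehydratase) and Got1 (cytosolic aspartate aminotransferase) varied most between fasted LF mice. Tat was at 3382, 1632, 664 and 1782 CPM in WT LF fasted replicates 1 to 4 and at 77.7, 1468, 1627 and 3134 CPM in MCAD-KO LF fasted replicates 1 to 4, against 531 to 1632 CPM (median 1334) in LF fed mice. The same mice had Sds at 412, 239.9, 149 and 247 CPM in WT and 7.94, 231, 257 and 316 CPM in MCAD-KO, against 102 to 209.8 CPM (median 123) in LF fed mice. Got1 was at 1326, 943, 188 and 579 CPM in WT and 207, 497, 748 and 854 CPM in MCAD-KO, against 228 to 335 CPM (median 289) in LF fed mice. For each of the 3 genes MCAD-KO LF fasted replicate 1 and WT LF fasted replicate 3 were the lowest of their groups, and for Got1 both were below all LF fed mice. On HF, fasted and fed mice overlapped, at 516 to 729 and 424 to 1014 CPM for Tat, 67.4 to 150.02 and 76.5 to 180.4 CPM for Sds, and 131 to 286 and 185 to 444 CPM for Got1. The Got1 response on LF, 2.84-fold in WT (adjusted p = 0.0623) and 1.95-fold in MCAD-KO mice (adjusted p = 0.161), did not pass, while its difference between diets did (-1.75, SE 0.46, adjusted p = 0.0392). The end of Sds overlaps Plbd2 on the opposite strand, and how reads there were assigned depends on the strand setting, which is not given.

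**Figure D3:**
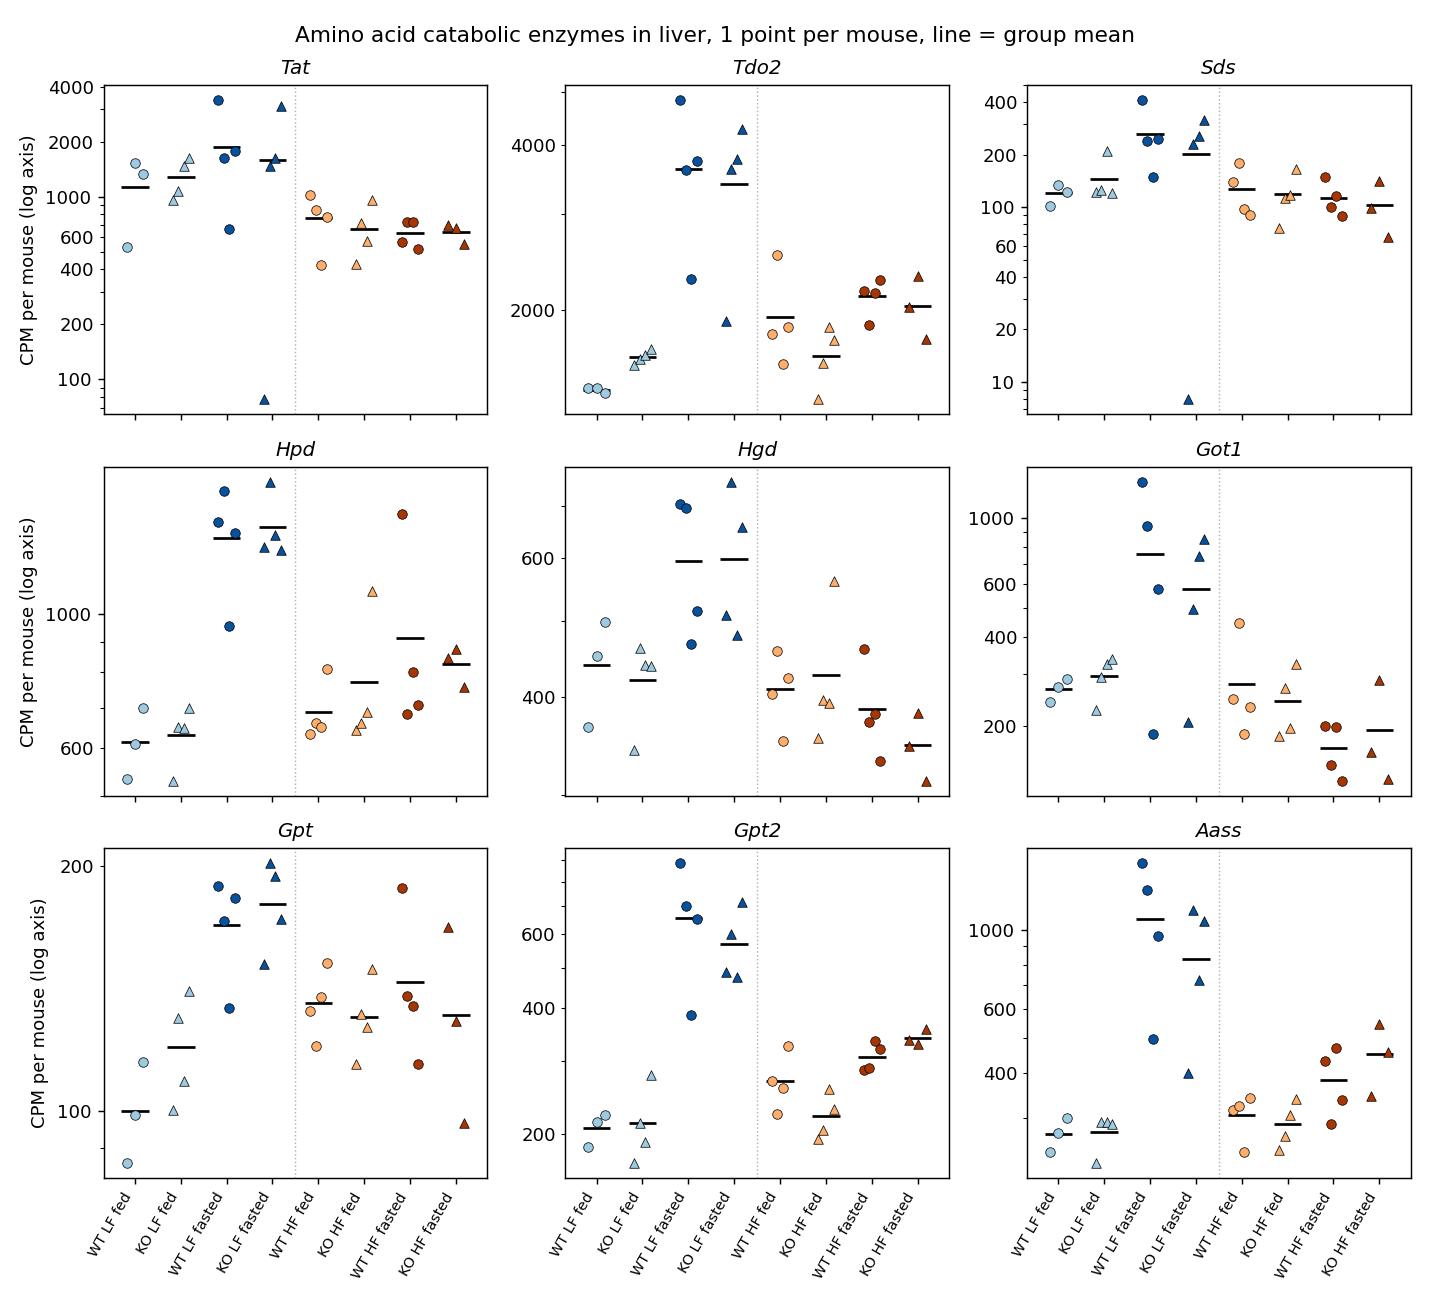
CPM of the 9 enzymes in each of the 30 mice by group (circles WT, triangles MCAD-KO, line the group mean, log axis; blue LF, orange and brown HF, pale fed, dark fasted). Among the mice shown, fasted LF mice lie above all fed LF mice for Tdo2, Hpd, Gpt2 and Aass. For Tat and Sds, 1 MCAD-KO LF fasted mouse lies far below the rest.

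MCAD-KO LF fasted replicate 1 stood apart from the other 3 mice of its group. Their mean was 33.7-fold higher for Sds, 26.7-fold higher for Tat, 3.39-fold higher for Got1, 2.44-fold higher for Aass and 2.04-fold higher for Tdo2, whereas Hpd, Hgd, Gpt and Gpt2 differed by 1.11-fold to 1.25-fold. The share of all genes outside the range of the other 3 mice was not computed, so the next counts do not show how unusual this mouse was. Of 22 regulators and hormone target genes, 10 were below all 3 other mice in this mouse, 7 were above them and 5 lay within their range. Among the low ones, Pck1 (phosphoenolpyruvate carboxykinase, of gluconeogenesis) was at 2194 CPM against 8701 to 13199 CPM, G6pc (glucose-6-phosphatase) at 152 against 639 to 764 CPM, and Fkbp5, a glucocorticoid target, at 16.8 against 48.9 to 126 CPM. Among the high ones, Ppara, a nuclear receptor for fatty acids, was at 394 against 163 to 211 CPM, Creb3l3 at 543 against 309 to 439 CPM and Irs2 at 23.4 against 8.97 to 18.8 CPM. The hormone targets Igfbp1 (905 against 589 to 2035 CPM), Per1 (21.2 against 10.8 to 53.6 CPM) and Tsc22d3 (76.8 against 71.6 to 90.1 CPM) were within the range of the other 3 mice. Crtc2, a coactivator of CREB, had 1 count in this mouse against 49 to 218 in the other 29. Chosen after its values were seen, this pattern of at most 3 counts in 1 mouse and at least 40 in each of the other 29 was met by 5 genes (Crtc2, Numb, Adam9, Rpl36a-ps3 and Gm6977), all 5 in this mouse. In all, 4601 genes had 40 or more counts in at least 29 of the 30 mice. Its hepatocyte markers (42972 CPM) were within the range of the 30 mice but the lowest of the 8 LF fasted mice. It was 1 of 3 LF fasted mice below all 7 LF fed mice (47745 to 53687 CPM) for these markers. Its erythroid markers (1297 CPM) were the highest of the 30, and its macrophage and leukocyte markers (597 CPM) were the highest of the 8 LF fasted mice. The part of these features in its low Tat and Sds was not tested. Without it, 5 of 9 members still passed for the average fasting effect.

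**Figure D4:**
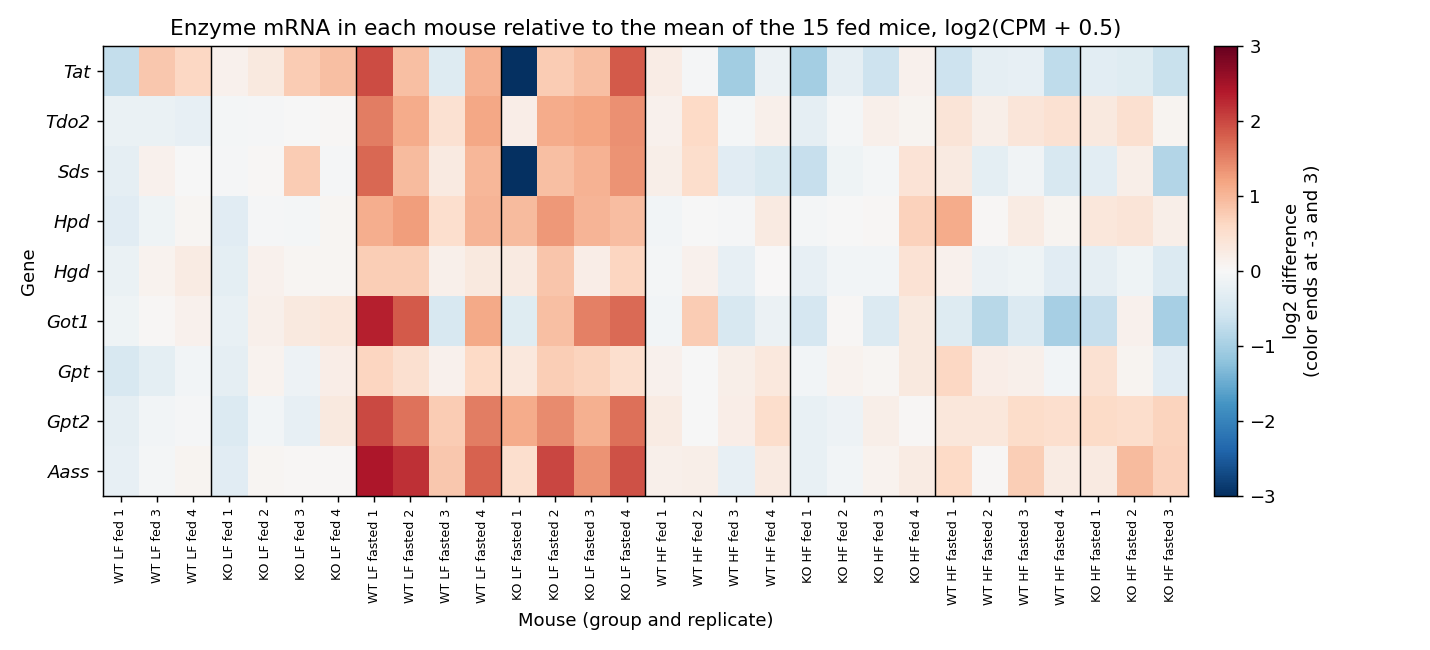
Log2(CPM + 0.5) of each enzyme in each mouse minus the mean of the 15 fed mice, columns ordered by group. Red columns fill the LF fasted groups except MCAD-KO LF fasted replicate 1, where Tat (-3.48) and Sds (-3.88) are dark blue, and WT LF fasted replicate 3, where values stay between -0.49 and 0.81.

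Taken by non-overlap alone, all LF fasted mice exceeded all LF fed mice for 4 of the 9 genes (2.93% of all genes), and all HF fasted mice exceeded all HF fed mice for 0 of 9 (0.372% of all genes). The LF count holds for the mice used. The left-out WT LF fed replicate 2 had Gpt2 at 420 CPM, above the lowest LF fasted mouse (384 CPM). For Tdo2 (687 CPM), Hpd (315 CPM) and Aass (190 CPM) that left-out mouse was below all LF fasted mice. All HF fasted mice were below all LF fasted mice for 2 of 9, Hgd and Gpt2 (0.553% of all genes).

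The diets were next compared within each feeding state. In fasted mice, 6 of 9 mRNAs were lower on HF than on LF (Tdo2, Hpd, Hgd, Got1, Gpt2 and Aass), where 6.65% of all genes differed and 2.9% were lower. Got1 was 3.64-fold lower (log2 fold change -1.86, SE 0.33, adjusted p = 0.000982), Aass 2.27-fold (-1.19, SE 0.20, adjusted p = 0.000246) and Gpt2 1.89-fold (-0.92, SE 0.14, adjusted p = 2.28e-05). Tat (-1.43, adjusted p = 0.0617), Sds (-1.09, adjusted p = 0.116) and Gpt (-0.34, adjusted p = 0.0981) did not pass, and Tat and Sds passed without MCAD-KO LF fasted replicate 1, which gave 8 of 9. With all 32 mice 3 passed (Got1, Gpt2 and Aass), and within each lane 4 passed. In fed mice, edgeR called 0 of 9 (0.268% of all genes), with Gpt alone at an unadjusted p under 0.05 (log2 fold change 0.28, interval 0.03 to 0.54), and DESeq2 and limma voom also called 0. Averaged over feeding states, Hgd, Got1, Gpt2 and Aass were lower on HF, 4 of 9, where 3.49% of all genes differed and 1.24% were lower. This average count was 2 without WT LF fed replicate 4, 7 without MCAD-KO LF fasted replicate 1, 2 without both mice with pancreas RNA and 0 within each lane.

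The loss of MCAD was not accompanied by a detected change in these mRNAs. Of the 9, 0 passed for genotype on average or in any of the 4 diet and feeding states (0.00865% of all genes, 1 gene, Acadm, in each of the 5 comparisons), and 0 had an unadjusted p under 0.05. DESeq2 and limma voom also called 0 of 9. The average log2 fold changes of MCAD-KO over WT ran from -0.09 for Sds to 0.04 for Gpt. The 95% confidence intervals allowed changes of -0.26 to 0.12 for Gpt2, -0.25 to 0.15 for Tdo2 and -0.33 to 0.23 for Aass, and were wider for Got1 (-0.53 to 0.40) and Tat (-0.70 to 0.58). Nor did the fasting effect differ between genotypes for any of the 9, or for any of the 11566 genes (0%, 573 genes at an unadjusted p under 0.05, and 0 genes by DESeq2 and limma voom). For Gpt2 this difference (MCAD-KO minus WT) was 0.09 with an interval of -0.29 to 0.48, and for Aass -0.03 with -0.59 to 0.53.

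Within groups, the 9 mRNAs varied together from mouse to mouse. Over the 36 pairs, Pearson's r of the deviations from the group means (30 mice, log2 CPM) ran from 0.273 for Tat and Hpd to 0.919 for Tat and Sds, with a median of 0.553. Without MCAD-KO LF fasted replicate 1 the Tat and Sds value was 0.705 and the median 0.617. Tdo2 and Got1 (0.887, and 0.859 without that mouse) came next. All values come from the same libraries and share their depth and scaling. The same correlation was not computed over other gene pairs, so these values do not show covariation particular to the 9. Over the 30 mice, genes outside the lists of amino acid, regulator and marker genes that were among those most like the mean standardized profile of the 9 were Arg1 (arginase, r = 0.908), Atl2 (0.897), Asl (argininosuccinate lyase, 0.895) and Gfra1 (0.870). Aass (0.939) and Tdo2 (0.931) followed that mean most closely among the 9 themselves, and Tat (0.672) and Sds (0.666) least. Each of the 9 is itself part of the mean, which raises its r, so these values are not comparable with those of the genes outside the lists.

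Other enzymes of amino acid breakdown moved in both directions with fasting. Of 48 such genes in 6 lists, 46 were tested, and 5 rose with fasting, 11 fell and 30 did not pass, with a median log2 fold change of -0.0818. Over all genes, 9.77% rose and 9.14% fell. Among 14 further genes of aromatic amino acid breakdown, Aadat (an aminotransferase of the kynurenine pathway, 1.41-fold) rose and 6 fell, including Qdpr (dihydropteridine reductase, which regenerates the cofactor of phenylalanine hydroxylase, log2 fold change -0.72), Haao (-0.71) and Kyat1 (-0.66). Of 9 further aminotransferase and glutamate genes, Abat rose (1.30-fold) while Glud1 (glutamate dehydrogenase, -0.56) and Gls2 (liver glutaminase, -0.38) fell. In the serine, glycine and threonine list, 7 of 9 genes were tested, and Sdsl, a paralog of Sds, rose (2.06-fold) while Gcat (-0.76) and Gcsh (-0.26) fell. Of the 7 lysine genes, Hykk rose (1.39-fold). Of 5 proline and ornithine genes, Oat (ornithine aminotransferase) rose 1.86-fold and Aldh4a1 fell (-0.47), and none of 4 histidine genes passed.

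Of these 46 genes, 2 differed between diets in their response to fasting, a count near the share of 2.46% over all genes. Sdsl was at 4.52 to 12.1 CPM in LF fed and 17.9 to 50.1 CPM in LF fasted mice, and at 5.83 to 8.79 CPM in HF fed and 4.60 to 12.2 CPM in HF fasted mice. The groups were separate on LF and overlapped on HF, and the difference was -1.68 (SE 0.36, adjusted p = 0.00615). Kyat1 went the other way (0.89, SE 0.24, adjusted p = 0.0384), as it fell more with fasting on LF.

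Among 11 of 12 amino acid transporters tested, 4 rose with fasting, including Slc25a22 (a mitochondrial glutamate carrier, 2.26-fold), Slc1a2 (1.59-fold) and Slc25a13 (the liver aspartate-glutamate carrier, 1.39-fold), and Slc38a3 fell (log2 fold change -0.27). Of the 11 transporters, only Slc25a15, the mitochondrial ornithine carrier, responded differently between diets (-0.66, SE 0.18, adjusted p = 0.0374). Of 22 regulators and hormone target genes, 11 rose and 1 fell. The shares over all genes, for both lists, were 9.77% rising and 9.14% falling. Creb3l3 rose 1.76-fold, Per1 4.66-fold and Fkbp5 3.78-fold, and Nr3c1, the glucocorticoid receptor, fell (-0.42). Per1, which glucocorticoids and cAMP induce and which also oscillates with the clock, was at 0.968 to 5.06 CPM in LF fed, 8.63 to 53.6 CPM in LF fasted, 0.641 to 8.79 CPM in HF fed and 4.19 to 15.4 CPM in HF fasted mice. Its difference between diets was -2.24 (SE 0.60, adjusted p = 0.04). Nr3c1 differed in the opposite direction (0.73, SE 0.18, adjusted p = 0.0183), with 107 to 136 CPM in LF fed, 39.3 to 91.4 CPM in LF fasted, 76.9 to 128 CPM in HF fed and 89.1 to 126 CPM in HF fasted mice. The other 20 regulators and hormone targets did not pass for this difference, among them Fkbp5 (adjusted p = 0.069), Pck1 (0.415) and Tsc22d3 (0.463). Over all genes, 2.46% differed between diets in their response to fasting.

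Marker lists of other tissues were also compared across diet and feeding. The summed adipose list was at 40.4 to 231 CPM in LF fasted mice against 0.676 to 10.1 CPM in LF fed, 2.59 to 58.8 CPM in HF fed and 12.9 to 90.9 CPM in HF fasted mice. Of its 6 genes, Cidec (12.8 to 177 CPM in LF fasted mice) gave at least 75.4% of the summed level in 7 of the 8 LF fasted mice and 31.6% in MCAD-KO LF fasted replicate 3. Cfd reached 36.7 CPM in LF fasted and 41.5 CPM in HF mice, Plin1 reached 7.49 CPM and Adipoq 8.68 CPM in LF fasted mice, and Lep and Retn had medians of 0 CPM in all 4 states. Hepatocyte markers overlapped between LF fed (47745 to 53687 CPM) and LF fasted mice (42972 to 59582 CPM). Macrophage and leukocyte markers had a median of 307 CPM in LF fasted mice (268 to 597 CPM) against 476 CPM in LF fed mice (376 to 497 CPM), and 6 of the 8 LF fasted mice were below all 7 LF fed mice. The exceptions were MCAD-KO LF fasted replicate 1 (597 CPM) and WT LF fasted replicate 3 (491 CPM), the mice with the lowest Tat, Sds and Got1 of their groups. Adrenal cortex markers were at 295 CPM in MCAD-KO LF fasted replicate 3 and 125 CPM in MCAD-KO LF fasted replicate 4, and at most 41.2 CPM in the other mice used. The part of these differences in the enzyme values was not tested.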

How the data were processed

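Libraries were made from total liver RNA with a 3′ tag kit (QuantSeq). The authors deposited whole-number read counts per gene, not normalized, made by alignment with HISAT 0.1.5 to GRCm38, sorting with SAMtools 1.2 and counting with HTSeq 0.6.1p1 (submitters' processing notes); the strand setting is not given in the sources used here. Gene positions and symbols came from GENCODE M21 and matched 19913 of 20076 genes.

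Counts were filtered with filterByExpr, scaled by TMM and tested with edgeR 4.0.16 (robust quasi-likelihood F test, R 4.3.3) in 1 model of 8 groups on 30 mice, without a block, where the study used limma voom and DESeq2. P-values were adjusted by Benjamini-Hochberg over 11566 genes, and SE is the absolute log2 fold change divided by the square root of F. DESeq2 1.42.0, limma 3.58.1 and the other settings given in the closing section were alternatives, and the scripts were tested on simulated counts. Median depth was 2899001 counts. Intervals give the uncertainty of the group contrasts, estimated from the spread between these mice, and do not span the values of single mice. Counts without molecular identifiers include PCR copies.

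The 9 members and all gene lists were chosen with earlier results of these data known, and the left-out mice by the same prior choice. The genes named are all 9 members, Acadm, up to 3 genes per direction of each other list with the smallest p for fasting, the 5 genes most like the members (1 of them is not reported here), and, chosen after their values were seen, genes that differed between diets or stood apart in 1 mouse. Mice with the same replicate number did not deviate together (median r = 0.00603 over 98 pairs), so the numbers do not pair mice. No 2 mice of a group had counts that agree within sampling noise (smallest chi-square per gene 3.93 over 48 pairs).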

Additional observations from a re-analysis of the deposited data

Results flagged for a closer look

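Dixon's ratio was taken on log2(CPM + 0.5), not on the CPM values printed here. Of 54 sets of 4 mice (9 genes in the 6 groups of 4), 5 held a mouse far from the other 3 by this ratio, where chance gives about 1 in 20. These were Sds in MCAD-KO LF fasted replicate 1 (7.94 CPM) and in MCAD-KO LF fed replicate 3 (209.8 CPM), Hpd in MCAD-KO HF fed replicate 4 (1089.6 CPM) and in WT HF fed replicate 4 (810.4 CPM), and Aass in MCAD-KO LF fed replicate 1 (224.6 CPM).

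The response to fasting differed between diets (HF minus LF, log2) for Tdo2 (-0.98), Hpd (-0.88), Hgd (-0.67), Got1 (-1.75), Gpt (-0.63), Gpt2 (-1.14) and Aass (-1.31). The adjusted p of these tests by edgeR ran from 0.000456 for Gpt2 to 0.0474 for Gpt.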

How the results depend on the processing

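The number of enzymes called for the average fasting effect was 5 in each fit that left out 1 mouse, and 2 with all 32 mice. With all 32 mice, 1 enzyme was called in WT and 1 in MCAD-KO mice on LF, 0 for the average diet effect, 3 for diet in fasted mice and 0 for the difference of the fasting effect between diets. That difference, called for 7 enzymes in the 30 mice, was called for 4 with lane as a term, 4 with the replicate number as a block, 4 without both mice with pancreas RNA, 0 within lane 7 and 2 within lane 8, and for 4 to 8 when 1 mouse was left out. The block is no paired analysis, since same-numbered mice did not deviate together and 5 of 30 mice correlated best with their own number. The average diet effect was called for 2 enzymes without both mice with pancreas RNA, 0 within lane 7, 0 within lane 8, and 2 to 7 when 1 mouse was left out.

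Over all genes, 863 instead of 2187 passed for fasting within lane 7. For diet, 81 instead of 404 passed with all 32 mice, 62 within lane 7 and 136 within lane 8. For the difference between diets, 22 instead of 285 passed with all 32 mice, 152 with only the heart-like library left out, 156 without both mice with pancreas RNA, 39 within lane 7, 28 within lane 8 and 170 to 333 when 1 mouse was left out, and for genotype 1 to 2. Fits within lanes held fewer mice and pooled the genotypes, and the cause of the other changes was not tested.

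The direction turned for Tat (fasting, limma voom, log2 fold change -0.020), Hgd (fasting, within lane 8, -0.056) and Gpt (diet, -0.086 to 0.014 when 1 mouse was left out), none of which was called in the 30 mice for that comparison. The settings that used DESeq2, limma voom, DESeq2 size factors, a stricter filter or age as a term left each count of called enzymes within 1.5 times of the value reported. Lanes 7 and 8, the unequal groups within them and 3 to 4 mice per group limit the precision.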
